A study of Rattus norvegicus with 10 samples.

Results

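The genes described here mark antibody-producing cells and the epithelial receptor that carries their product into saliva. The list holds 9 genes, chosen by symbol: Cd79a, Cd79b, Ms4a1 and Cd22 of B cells, Jchain, Mzb1, Pou2af1 and Tnfrsf17 of plasma cells and their precursors, and Pigr of gland epithelium. On the array 6 of the 9 were measured, with 8 of its 30367 non-control probes, against 15168 named genes in all. No probe matched Cd79a, Ms4a1 or Jchain through its sequence record, and these 3 genes were not analysed here.

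The tissue was the submandibular gland, a major salivary gland, taken from males that were 14 weeks old. One group was 5 spontaneously hypertensive rats (SHR), inbred animals whose blood pressure becomes high, and the other was 5 Wistar-Kyoto rats (WKY), the control strain, matched in age and weight. Neither group carried a transgene or received a treatment according to the labels, and the strains differ throughout the genome, so a strain difference cannot be assigned to blood pressure. Each rat had 1 one-colour Agilent array, and the arrays are named by strain and the number pair of the sample title.

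B cells recognise antigen through a surface immunoglobulin held together with a signalling pair of chains, CD79A and CD79B. After activation some become plasma cells, which devote their secretory machinery to antibody. In salivary glands, plasma cells between the acini and ducts release mostly polymeric IgA joined by the J chain. The polymeric immunoglobulin receptor, the product of Pigr, binds it at the base of epithelial cells, carries it across and releases it into saliva as secretory IgA.

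Levels are log2 intensities relative to the 75th percentile of the same array, so 0 is that percentile. All 8 probes were well above background on all 10 arrays, a mark that 94.8% to 97.7% of all spots carried. The 75th percentile lay between 333 and 648 intensity units, and array SHR 3-3 had the lowest one, the lowest share of spots above background and the lowest mean correlation with its own strain (0.979). Arrays with the same recorded scan time formed 3 scan passes: SHR 2-3, 3-1, 3-3 and 3-4 in the first, SHR 2-1 with WKY 1-5, 4-1 and 4-2 in the second, and WKY 1-2 and 1-3 in the third. With 5 arrays a strain, precision is limited by their number. In whole-gland RNA, fewer cells of a type and less RNA per cell cannot be told apart.

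The comparison asks how the strains differ in these genes. Pigr was higher in SHR, 1.31-fold (95% interval 1.13 to 1.51), and was the 1 gene of 6 that passed an adjusted p of 0.05 in limma. Over all 14711 named genes tested, 641 passed (4.36%), 222 higher and 419 lower in SHR. Of the 5 measured B cell and plasma cell genes, Cd79b, Cd22, Mzb1 and Tnfrsf17 had negative differences of SHR minus WKY, between −0.33 and −0.07 on the log2 scale, and Pou2af1 had 0.04. None of these 5 passed. The unadjusted p was under 0.05 for 2 of the 6, Pigr and Cd79b, against 20.3% of all genes. The strains did not overlap in 1 of the 6, Pigr, against 7.25% of all genes. The median difference over the 6 genes was −0.15, with 2 positive and 4 negative, and over all genes tested it was −0.02.

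**Figure D1:**
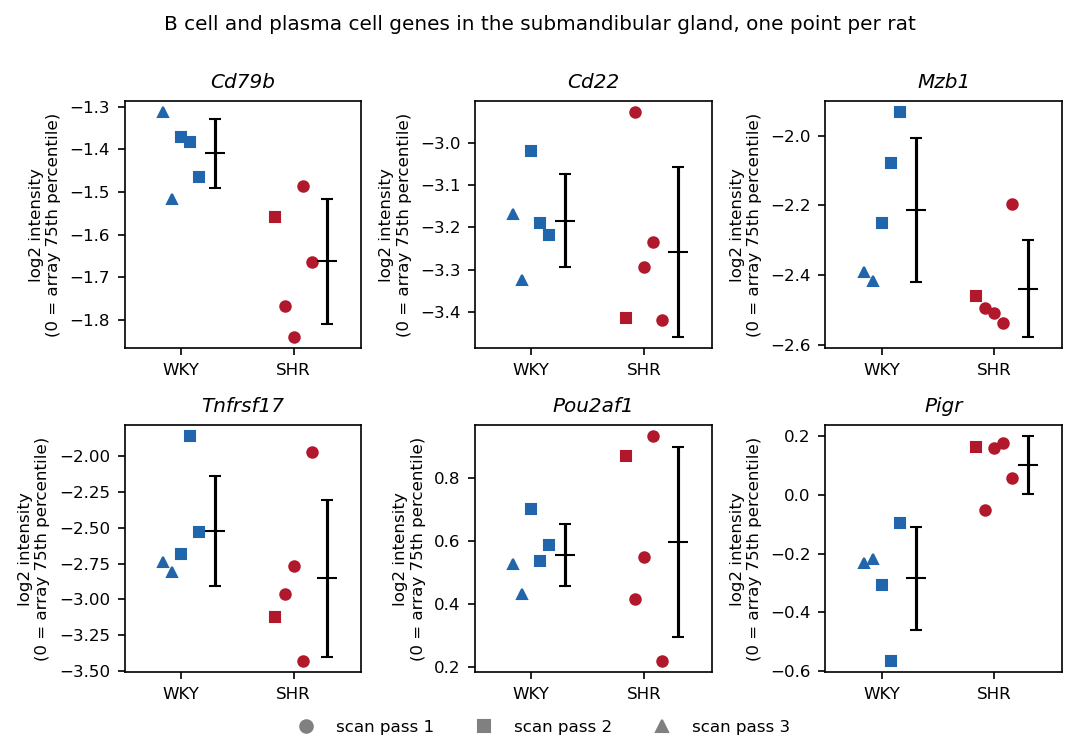
Log2 intensity of 6 genes relative to the array's 75th percentile (vertical axis, own scale in each panel) in WKY (blue) and SHR (red), 1 point per rat, with the mean and SD of 5 rats at the right of each group and the marker shape giving the scan pass. The SHR points lie above all WKY points for Pigr, and the strains overlap for the other 5 genes.

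Among the B cell receptor genes, Cd79b encodes the beta signalling chain of the receptor. In SHR its log2 intensity was −1.56, −1.77, −1.84, −1.49 and −1.66 in arrays 2-1, 2-3, 3-1, 3-3 and 3-4. In WKY it was −1.31, −1.52, −1.37, −1.38 and −1.46 in arrays 1-2, 1-3, 1-5, 4-1 and 4-2. Only SHR 3-3 reached into the WKY range, where it lay just above WKY 1-3. The means were −1.66 ± 0.15 and −1.41 ± 0.08 (SD, n = 5 each), a difference of −0.25 ± 0.089 (SE, 95% interval −0.45 to −0.06, adjusted p = 0.132). The difference was larger than the spread within either strain but did not pass over all genes. With a random block for the scan pass or for the first number of the title it passed (adjusted p = 0.0104 and 0.0422), where the estimated correlations within blocks were negative (−0.19 and −0.16). Within the second scan pass, 1 SHR array against 3 WKY arrays, it was −0.15 and did not pass (adjusted p = 0.895, and 1.00 with the scan pass as a fixed block).

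Cd22 encodes a lectin of B cells that binds sialic acid and dampens receptor signalling. Its log2 intensity in the SHR arrays, in the same order, was −3.42, −2.93, −3.30, −3.24 and −3.42. In the WKY arrays it was −3.17, −3.33, −3.02, −3.19 and −3.22. The highest and the lowest of all 10 values were both in SHR. The probe was dim, at 35.4 to 84.4 intensity units, where the dimmest signal called above background on an array was at most 16.7. The means of −3.26 ± 0.20 and −3.18 ± 0.11 differed by −0.07 ± 0.106 (95% interval −0.30 to 0.16, adjusted p = 0.743). The difference was −0.16 without SHR 2-3, the highest array, and −0.27 within the second scan pass. It was −0.0009 with the authors' values, and with the second number of the title as a fixed block its sign turned (0.04).

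Mzb1 encodes a chaperone of the endoplasmic reticulum that helps B cells and plasma cells assemble and secrete antibody. In SHR its log2 intensity was −2.46, −2.49, −2.51, −2.54 and −2.20, so that 4 arrays lay between −2.54 and −2.46 and SHR 3-4 stood above them. In WKY it was −2.39, −2.42, −2.25, −2.08 and −1.93. All WKY values were above those 4 SHR values, and SHR 3-4 lay inside the WKY range. The means were −2.44 ± 0.14 and −2.21 ± 0.21, with a difference of −0.23 ± 0.11 (95% interval −0.47 to 0.02, adjusted p = 0.280). It was −0.07 with normexp background correction and quantile normalization, −0.37 within the second scan pass, and −0.16 without WKY 4-2.

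Tnfrsf17 encodes BCMA, a receptor through which the cytokines BAFF and APRIL keep plasma cells alive. It varied most between rats of 1 strain. In SHR the log2 intensity was −3.12, −2.96, −2.77, −3.43 and −1.97, and in WKY it was −2.74, −2.81, −2.68, −1.86 and −2.53. The highest array of each strain, SHR 3-4 and WKY 4-1, stood well above the rest of its group, and SHR 3-3 was the lowest of all. The means of −2.85 ± 0.55 and −2.52 ± 0.38 differed by −0.33 ± 0.25 (95% interval −0.87 to 0.22, adjusted p = 0.496). The difference was −0.55 without SHR 3-4, −0.18 without SHR 3-3, −0.16 without WKY 4-1 and −0.77 within the second scan pass. At this spread a change of up to 0.87 downwards lay within the interval.

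Pou2af1 encodes a coactivator that joins octamer-binding transcription factors at immunoglobulin promoters and is needed for germinal centres. It had 3 probes, all assigned to the same transcript record. The brightest, A_64_P120913, gave 0.87, 0.42, 0.55, 0.93 and 0.22 in SHR and 0.53, 0.43, 0.70, 0.54 and 0.59 in WKY. The SHR values spread on both sides of the WKY values. The means were 0.60 ± 0.30 and 0.56 ± 0.10, with a difference of 0.04 ± 0.13 (95% interval −0.25 to 0.33, adjusted p = 0.898). The sign of this small difference turned when the 3 probes were averaged, under array weights, with the scan pass as a random block, and without SHR 2-1 or SHR 3-3.

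The other Pou2af1 probes ran differently from rat to rat. Probe A_43_P14436 gave −1.17, −0.92, −0.64, −1.73 and −0.55 in SHR and −1.15, −1.26, −0.76, −0.46 and −0.71 in WKY, a difference of −0.14 ± 0.22. Probe A_64_P120912, the dimmest, had a difference of 0.08 ± 0.11 with all 10 values between −3.58 and −3.05. Neither passed when every probe was tested by itself (adjusted p = 0.774 and 0.743). SHR 3-3 had the highest value of the 10 arrays on the brightest probe and the lowest on A_43_P14436. Across the 10 arrays these 2 probes had a Pearson correlation of −0.58 and a Spearman correlation of −0.36 (permutation p = 0.078 and 0.311, adjusted over 28 probe pairs 0.312 and 0.576). The pairs of the third probe with each of them had correlations of 0.41 and −0.17. No joint level of Pou2af1 was read from the 3 probes.

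**Figure D2:**
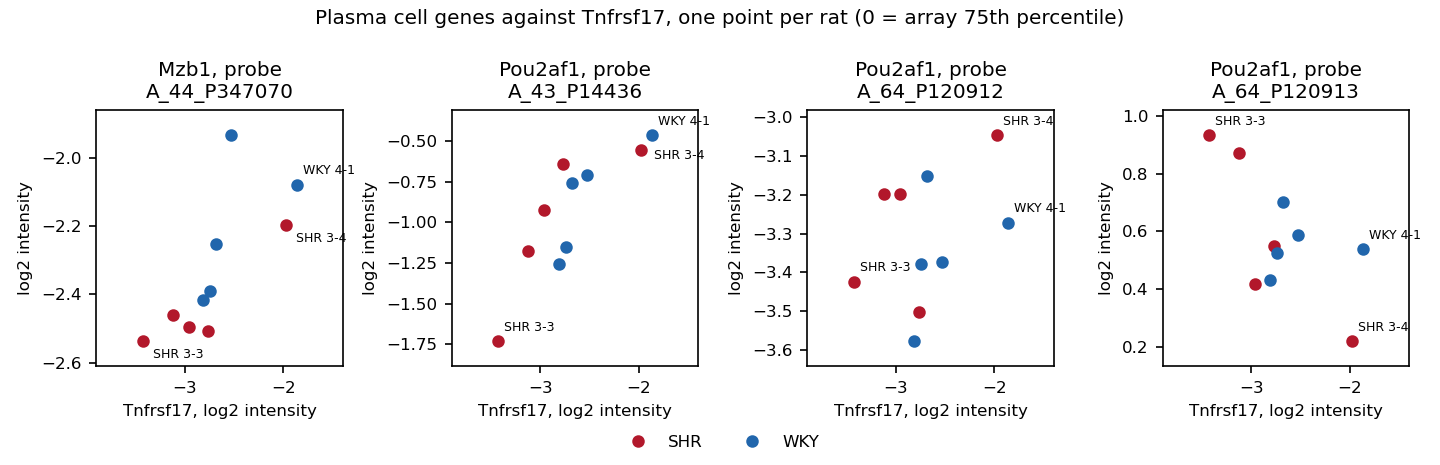
Log2 intensity of the Mzb1 probe and the 3 Pou2af1 probes (vertical axes) against that of Tnfrsf17 (horizontal axis), both relative to the array's 75th percentile, 1 point per rat, SHR in red and WKY in blue. Mzb1 and Pou2af1 probe A_43_P14436 rise with Tnfrsf17, with correlations of 0.74 and 0.84, while the brightest Pou2af1 probe runs the other way at −0.67.

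Pairs of the 6 genes were compared over the 10 rats, to see which vary together from gland to gland. Of 15 pairs, 0 passed an adjusted p of 0.05 for Pearson's r, and 2 had an unadjusted permutation p under 0.05. Mzb1 and Tnfrsf17 had the highest r, 0.74 (permutation p = 0.0141, adjusted 0.212), and a Spearman rho of 0.88 (permutation p = 0.00137, adjusted 0.0205). The call by rho was lost in 5 of the 10 runs that left out 1 array, namely SHR 3-3 or 3-4 and WKY 1-2, 1-5 or 4-1 (adjusted permutation p from 0.062 to 0.124). With each strain centred on its mean, r was 0.70, and without WKY 4-1 it was at its lowest, 0.67 (adjusted permutation p = 0.456). Without WKY 4-1 and 4-2, the arrays farthest from the Mzb1 median, r was 0.84 (exact permutation p = 0.00258, adjusted 0.0387). Without WKY 4-2 alone it was 0.91 and passed (permutation p = 2.6e-04, adjusted 0.00384). Every scan pass held fewer than 6 arrays, too few for a value of its own.

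Tnfrsf17 also ran with 1 of the Pou2af1 probes. For A_43_P14436, r was 0.84 (permutation p = 0.00134, adjusted 0.0375) and rho 0.85 (permutation p = 0.00283, adjusted 0.0396). By r this was the only one of the 28 probe pairs to pass, and by rho Mzb1 with Tnfrsf17 passed too (rho 0.88, adjusted 0.0384). Centred by strain r was 0.85, and without SHR 3-3 and WKY 1-3 it was 0.81 (exact permutation p = 0.0179). That probe also had an r of 0.74 with the array's own 75th percentile (permutation p = 0.0146, adjusted over 8 probes 0.117), which was 0.24 without the same 2 arrays. The part of array signal in the pair's correlation was not tested. The brightest Pou2af1 probe had an r of −0.67 with Tnfrsf17 (permutation p = 0.0345, adjusted over 15 pairs 0.259, rho −0.38 with adjusted p = 0.521). That r was −0.30 without SHR 2-1 and 3-3, the arrays farthest from the probe's median. With 1 array left out, r was −0.51 without SHR 3-3, −0.52 without SHR 3-4, −0.62 without SHR 2-1 and −0.79 without WKY 4-1.

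The B cell receptor genes did not run with the plasma cell genes to a degree that passed. Cd79b had an r of 0.13 with Cd22, 0.41 with Mzb1 and 0.12 with Tnfrsf17 (adjusted permutation p = 0.857, 0.507 and 0.857). Without SHR 2-3 and 3-1, the r of Cd79b with Cd22 was 0.86 (exact permutation p = 0.00692, adjusted 0.0519). Pigr had negative correlations with 4 of the other 5 genes, of which the most negative was −0.63 with Cd79b (permutation p = 0.0523, adjusted 0.262). Centred by strain, that correlation was 0.04. With Cd22, Mzb1 and Tnfrsf17 the r of Pigr was −0.41, −0.54 and −0.58, and −0.38, −0.11 and −0.545 centred by strain. None of these passed (adjusted permutation p = 0.507, 0.335 and 0.302, uncentred).

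Pigr encodes the epithelial receptor for polymeric IgA and is made by the gland's own epithelium, not by B cells. In SHR its log2 intensity was 0.17, −0.05, 0.16, 0.18 and 0.06. In WKY it was −0.23, −0.22, −0.31, −0.57 and −0.10. The lowest SHR value, in SHR 2-3, lay above the highest WKY value, in WKY 4-2, by less than the SD of either strain. The means were 0.10 ± 0.10 and −0.28 ± 0.18 (SD, n = 5 each), a difference of 0.39 ± 0.098 (95% interval 0.17 to 0.60, adjusted p = 0.0472). The strains did not overlap, which fixes p at 0.00794 in an exact two-sided permutation test, the smallest that 5 against 5 arrays allow. That p adds nothing to the lack of overlap, which 7.25% of all genes showed.

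The difference in Pigr was positive under every alternative run, between 0.31 and 0.51, but the call stood close to its threshold. It was lost in 9 of the 10 fits that left out 1 array (adjusted p from 0.0530 to 0.0981, kept only without WKY 4-2 at 0.0411), without a filter on dim probes (0.0510), with the scan pass as a fixed block (0.49, adjusted p = 0.882), and with the second number of the title as a fixed or random block (adjusted p = 0.240 and 0.0545). Within the second scan pass, SHR 2-1 stood at 0.17 and the 3 WKY arrays at −0.31, −0.57 and −0.10.

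**Figure D3:**
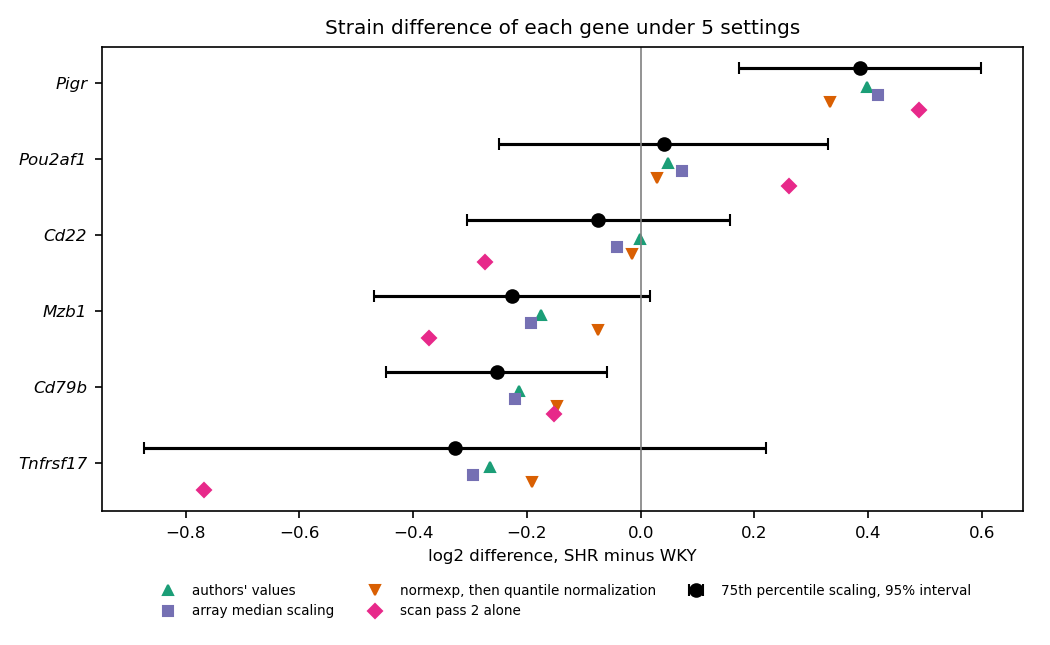
Log2 difference of SHR minus WKY (horizontal axis) for 6 genes, with the 95% interval of the limma fit on intensities scaled to the 75th percentile (black) and the difference under 4 other settings (coloured marks without intervals). Pigr lies to the right of 0 in all 5 settings, from 0.33 to 0.49, and the Tnfrsf17 mark of the second scan pass, −0.77, is the farthest from 0.

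The RefSeq promoter table (assembly GRCr8, rat) held 5 of the 9 listed genes, Cd79a, Cd22, Jchain, Tnfrsf17 and Pigr. The Pigr sequence is shown because it is the gene that passed, and because E-boxes bound by USF factors are known elements of the promoter of this receptor. It gives the 250 bases before the table's transcription start on the plus strand, chr13:44850932-44851181, with the E-box in capitals. The gene's record in the RefSeq gene table opens inside this window, so the window is upstream of only the start the promoter table uses.

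Pigr promoter: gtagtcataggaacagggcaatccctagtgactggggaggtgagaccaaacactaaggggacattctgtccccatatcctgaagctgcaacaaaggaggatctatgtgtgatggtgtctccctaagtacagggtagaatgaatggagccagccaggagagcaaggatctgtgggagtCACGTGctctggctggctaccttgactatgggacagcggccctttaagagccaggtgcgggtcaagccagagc

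The E-box CACGTG begins at position −73 from that start. By the gene's record, which opens at 44851001, the E-box at 44851109-44851114 lies inside the gene. Searched on both strands in windows of 300 bases, it was found in 1 of the 5 listed genes, Pigr, and in 6.42% of all 33469 promoters. The octamer ATGCAAAT, the motif at which the product of Pou2af1 acts, was found in 0 of the 5 and in 1.78% of all promoters. These matches describe the letters in the windows only.

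The genes whose values followed each member most closely were ranked by strain-centred Pearson correlation over the 10 arrays, as a description. For Mzb1 they were Igll1 (0.97), Fezf1 (0.94) and Sim1 (0.93). Igll1, an immunoglobulin lambda-like gene, stayed at 0.97 without SHR 3-3. For Tnfrsf17 they were Or10d1g (0.95), Serping1 (0.94) and Wnt4 (0.94), and for Cd79b they were Or13j1 (0.99), Nat14 (0.97) and Iqcf1 (0.95). For Pigr they were Fam20b (0.95), Lmo2 (0.93) and Thtpa (0.93), for Pou2af1 Mical3 (0.95), Xkrx (0.94) and Katnal1 (0.93), and for Cd22 Slc34a1 (0.91), Rexo4 (0.89) and Snrpb (0.88). Of these 18 genes, only Igll1 encodes an immunoglobulin chain relative. These values carry no test: they are the highest of 14711 genes ranked over 10 arrays that share 1 way of scaling.

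Immunoglobulin chain genes among the named probes were Igll1 and Igh-6l1. Igll1 had a mean of −0.89 ± 0.34 in SHR and −0.31 ± 0.48 in WKY, a difference of −0.58 ± 0.22 (95% interval −1.07 to −0.10, adjusted p = 0.161). Igh-6l1, a heavy chain-like gene, had −1.46 ± 0.17 and −1.67 ± 0.11, a difference of 0.21 ± 0.10 (adjusted p = 0.265). The strains overlapped in both, and neither passed.

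Other genes of B cells were measured in 21 of 23 listed, of which 0 rose, 2 fell in SHR and 19 did not pass. Their median difference was −0.08, beside −0.02 for all genes and 4.36% of all genes called. Syk, a kinase of the B cell receptor that macrophages and mast cells also use, fell by 1.14 ± 0.147 on the log2 scale (adjusted p = 7.7e-04), and the strains did not overlap. Cd72, a co-receptor of B cells that macrophages can also carry, fell by 0.56 ± 0.11 (adjusted p = 0.0114). Pax5, a transcription factor of B cell identity, chosen after its values were seen, had a difference of −0.06 (95% interval −0.26 to 0.14). Blnk, the adaptor below Syk, chosen after its values were seen, had −0.81 ± 0.26 (adjusted p = 0.104). Its strains did not overlap, and SHR 3-3 was lowest at −4.75.

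Markers of macrophages, B cells and T cells were read beside these genes. Of 11 macrophage markers, 3 fell in SHR, and all 11 differences were negative, with a median of −0.68. The share of all genes called in either direction was 4.36%. Fcer1g fell by 1.18 (adjusted p = 0.00710), Cd68 fell by 0.97 (0.00668) and Aif1 fell by 0.81 (0.0293) on the log2 scale. The level of that list, as the median of its centred values, ran from −1.03 to 0.01 in the SHR arrays and from 0.06 to 0.62 in the WKY arrays. The 4 measured B cell markers ran from −0.20 to 0.06 in SHR and from −0.04 to 0.13 in WKY, and 0 passed. Of 10 T cell markers tested 0 passed, with a median of 0.00, and the largest differences were −0.56 for Cd3g (adjusted p = 0.0516) and −0.23 for Cd247 (0.213). The part of macrophage RNA in the values of Syk and Cd72 was not tested.

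For plasma cells and their secretory machinery, 9 of 11 listed genes were measured. Of these 0 passed in either direction, against 4.36% of all genes, with a median of −0.01. Sdc1, the plasma cell antigen CD138 that epithelia also make, had −0.31 ± 0.13 (adjusted p = 0.187). Xbp1, a transcription factor of secretory cells in general, had 0.22 ± 0.11 (adjusted p = 0.308). Gland acinar cells make Xbp1 and several others of this list, so their level does not measure plasma cells alone. Of the plasma cell markers 5 of 6 were tested and 0 passed, with a median of −0.23.

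Among signals that attract or help B cells, Cxcl13, Il10 and Cxcl12 were lower in SHR. Of 16 measured genes of 17, 0 rose, 3 fell and 13 did not pass, with a median of −0.18. Over all genes tested, 4.36% were called in either direction and the median was −0.02. Cxcl13, the chemokine that draws B cells into follicles, was −3.01, −3.27, −3.40, −3.61 and −3.43 in SHR and −0.77, −0.13, −1.04, −0.01 and 0.16 in WKY. It fell by 2.99 ± 0.22 on the log2 scale, 7.93-fold, with no overlap. Its receptor Cxcr5, carried by B cells and chosen after its values were seen, had a difference of −0.01 (95% interval −0.22 to 0.19). The Cxcr5 probe was dim, with means of −3.66 in SHR and −3.65 in WKY, below those of Cd22 (−3.26 and −3.18). Il10 fell by 0.93 ± 0.20 (adjusted p = 0.0230) and Cxcl12, which retains plasma cells, by 0.75 ± 0.16 (adjusted p = 0.0242). Cxcl13 was also 1 of 8 markers of lymph node stroma. Of those 8, 0 rose, 1 fell (Cxcl13 itself) and 7 did not pass, with a median of −0.10.

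Further genes of the same list, chosen after their values were seen, were also read. Ccl28, the mucosal chemokine of IgA plasma cells, had −0.18 ± 0.13 (adjusted p = 0.456). Its receptor Ccr10 had −0.51 ± 0.13, just short of the threshold (adjusted p = 0.0509). The gene for BAFF, Tnfsf13b, and the receptor genes Tnfrsf13b and Tnfrsf13c were not matched to a probe. Tnfrsf17, a further receptor of BAFF, was measured as a member of the main list. Tnfsf13, which encodes APRIL, had 0.18 ± 0.13 (adjusted p = 0.451).

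Among genes known to work in the transport or control of the polymeric immunoglobulin receptor, 9 of 11 were measured. Of these 0 rose, 1 fell and 8 did not pass, against 4.36% called of all genes. Their median was −0.17, where Pigr itself had 0.39. Myo5b, a motor of apical recycling, fell by 0.38 ± 0.091 (adjusted p = 0.0375). Irf1, an activator of Pigr transcription, chosen after its values were seen, had −0.55 ± 0.15 (adjusted p = 0.0577).

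Markers of gland epithelium stood beside the rise of Pigr. Of 9 measured, 0 rose and 1 fell (Smgc, with a difference of −4.10), against 4.36% called of all genes. Positive differences were seen in 6 of the 9, with a median of 0.23. The list's level, as the median of centred values, ran from −0.59 in SHR 3-3 to 0.20 in SHR 3-4 and from −0.14 to 0.01 in WKY. In SHR 3-3 the markers, read after their values were seen, went opposite ways. Aqp5 (4.81) and Bhlha15 (5.27) were the highest of all arrays there. Egf (0.73), Krt7 (−0.14), Krt19 (−1.96) and Scnn1a (−0.62) were the lowest, and Smgc, Klk1 and Slc12a2 lay in between. The median therefore does not give the amount of epithelium in that array. Without SHR 3-3 the difference in Pigr was 0.37 (adjusted p = 0.0660). The part of the epithelial share of RNA in the Pigr value was not tested.

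**Figure D4:**
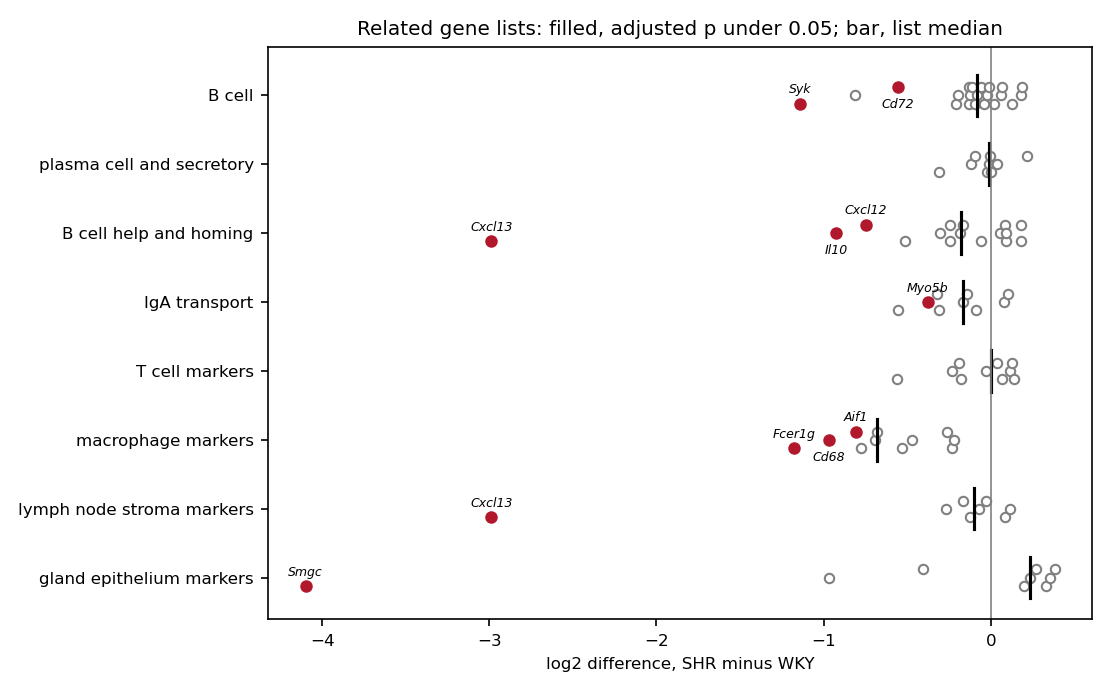
Log2 difference of SHR minus WKY (horizontal axis) for the tested genes of 8 lists of related genes and cell type markers, 1 point per gene, filled red where the adjusted p was under 0.05, with a bar at each list's median. The macrophage markers lie left of 0 with a median of −0.68, while the B cell list has its median at −0.08 and its only filled points are Syk and Cd72.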

How the data were processed

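Cy3-labelled cRNA was amplified from Trizol-extracted RNA, per the labels' protocols. The deposited scanner files come from Agilent Feature Extraction (11.0.1.1), per the file headers, and their processed signal is a linear intensity after background subtraction. In the deposited log2 values of 30423 probes every column had the same median (7.19) and 75th percentile (8.79), and how the authors made them is not given here.

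Log2 processed intensities were reduced by the array's 75th percentile. Outlier spots were left out, and a probe was kept (29266 of 30367) when 5 or more of 10 arrays showed it well above background. RefSeq accessions gave the symbols, through the GRCr8 gene list. Of 21135 probes with an mRNA record, 17980 were matched, and 18005 probes were named in all. The plan allowed for gene names in the scanner files, which gave 0. The brightest kept probe stood for a gene. The replicates are separate rats, per the labels.

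SHR was compared with WKY in limma 3.58.1 (R 4.3.3 with the data.table package, version 1.17.8; lmFit and eBayes, two-sided, no covariates), with Benjamini-Hochberg adjustment over 14711 genes and a threshold of 0.05. Correlations used 100000 permutations, or exact permutation over 8 arrays, in Python 3.11.15 with numpy 2.4.6, pandas 2.3.3 and scipy 1.17.1, and figures used matplotlib 3.10.9. The scripts were tested on simulated data. The members and lists were chosen with earlier results of these data known. Named genes were all members with a probe, the 3 genes most alike to each, and in each list up to 3 past the threshold with the largest change, or 2 with the largest difference where none passed. Others are marked in the text. Alternatives were normexp (offset 50, on median signals, since the files used had no mean signal) with quantile normalization, quantile normalization, median scaling, the authors' values, other filters and probe rules, array weights, a trend with robust variances, scan pass and title number as blocks, and leaving out each array. The second scan pass alone, the second title number as a block and the correlations over all 8 probes were added after seeing the data.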

Additional observations from a re-analysis of the deposited data

Results flagged for a closer look

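Mzb1 in array SHR 3-4, at −2.20, stood above the other 4 SHR arrays, which ran from −2.54 to −2.46, by more than Dixon's critical share of the group's range (0.771 against 0.71). The same array had the highest Tnfrsf17 value of its strain, −1.97. Of 16 groups checked, the 8 probes in each strain, this was the 1 that passed. Chance flags about 1 group in 20, so 1 such group among 16 can arise by chance.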

How the results depend on the processing

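Cd79b, Mzb1, Tnfrsf17 and Pigr kept their direction under every alternative run. Cd22 turned to 0.0396 with the second title number as a fixed block. Pou2af1 turned to −0.0067 with the mean of its probes, −0.0053 with array weights and −0.0437 with the scan pass as a random block, and ran from −0.0433 to 0.1358 when single arrays were left out. The members' median was −0.0443 with normexp. Genes called numbered 641 (222 higher and 419 lower), but 633 (279 and 354) with normexp, 773 (351 and 422) with quantile normalization, 722 (336 and 386) with median scaling and 856 (423 and 433) with the authors' values. With the scan pass as a fixed block 44 were called (12 and 32), and in the second scan pass alone 52 (14 and 38). As a random block the scan pass gave 3451 (1350 and 2101) and the first title number 1779 (669 and 1110), both with negative estimated correlations (−0.19 and −0.16). Leaving out 1 array gave 343 (without WKY 1-3) to 724 (without SHR 3-3), 125 to 237 higher and 218 to 512 lower. The count of members called was 1, but 0 without a filter, with the fixed scan pass block and in the second scan pass, 2 with a random block of scan pass or first title number, and 0 to 1 without single arrays. Correlated pairs past the threshold by Pearson's r numbered 0, but 1 without the 2 farthest arrays, 1 with all 8 probes, and 0 to 1 without single arrays. By rho, Mzb1 with Tnfrsf17 passed over all arrays (adjusted permutation p = 0.0205). Without SHR 2-3, Cd79b with Cd22 passed by rho too (rho 0.88, adjusted permutation p = 0.0231). The causes were not tested. The first title number is not shared between strains. The second is shared by some arrays, with no stated meaning. As a fixed replicate block it left 82 genes called (22 and 60) and 0 members, and as a random one 638 (217 and 421) and 0 members. All probes of the members were above background on all arrays, and the dimmest was Pou2af1 A_64_P120912.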
